A study of Mus musculus with 12 samples.

Results

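The 5 genes Rsg1, Intu, Fuz, Wdpcp and 2410089E03Rik encode the CPLANE proteins, the ciliogenesis and planar polarity effectors. They were taken by gene symbol from a table of 24279 genes measured by polyA RNA sequencing in mouse embryonic fibroblasts, and all 5 were present. 2410089E03Rik is the older symbol of the gene for CPLANE1. The cells were primary cultures from embryos of embryonic day 12.5, either wild type or carrying Rsg1L3P/L3P, the genotype called mutant here. The labels do not describe the L3P allele.

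The moderate groups came from F3 mice on a diet with 2 ppm folic acid, and the cells were grown in medium with 225 ng/mL folic acid. The fortified groups came from F3 mice on 10 ppm, and their medium held 3600 ng/mL, so diet and medium changed together and their effects cannot be told apart. Each of the 4 groups (moderate wild type, moderate mutant, fortified wild type, fortified mutant) had 3 libraries. Whether each library stands for an embryo or culture of its own is not given in the labels, so a p-value here reflects only library-to-library spread, which may be technical. In such bulk samples, fewer cells of a type and less RNA per cell cannot be told apart.

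A primary cilium is a single antenna-like projection that grows from the mother centriole and is needed for Hedgehog signalling in vertebrate embryos. Intu, Fuz and Wdpcp proteins bind one another, and with CPLANE1 and the small GTPase Rsg1 they act at the base of the cilium, where they help bring in the intraflagellar transport (IFT) machinery that builds it. Loss of these genes in mice disturbs cilia and Hedgehog signalling, with neural tube, limb and craniofacial defects. Intu and Fuz are named after fly genes that control planar cell polarity, the alignment of cells within a tissue plane.

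All 5 genes lie on the plus strand in mouse build mm10 (GRCm38), and each is on a chromosome of its own. In the GENCODE M21 annotation Rsg1 (ENSMUSG00000073733.4) spans chromosome 4 from 141213956 to 141226756, and its main transcript has 6 exons and 985 bases. Intu (ENSMUSG00000060798.7) spans chromosome 3 from 40531286 to 40704774, with 16 exons and 6387 bases. Fuz (ENSMUSG00000011658.16) is the most compact locus, on chromosome 7 from 44896079 to 44902631, with 11 exons and 1698 bases. Wdpcp (ENSMUSG00000020319.9) is the widest, on chromosome 11 from 21572235 to 21898989, with 18 exons and 2792 bases. 2410089E03Rik (ENSMUSG00000039801.7) spans chromosome 15 from 8169106 to 8271158 and has the longest main transcript, with 53 exons and 10469 bases.

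Genes of cilia are often bound by RFX factors, transcription factors that recognise the X-box, a short inverted repeat. Promoter windows of 300 bases (250 before the start site and 50 after it, RefSeq, GRCm38.p6) were searched on both strands for GTNNCC followed by 1 to 3 bases and GNAAC. Windows with these letters were found for 3 of the 5 genes, and these 3 are shown because they share the motif, in capitals, near the start site. Rsg1 is at chr4:141213706-141214005, Intu at chr3:40540517-40540816 and Wdpcp at chr11:21572031-21572330, all on the plus strand.
Rsg1: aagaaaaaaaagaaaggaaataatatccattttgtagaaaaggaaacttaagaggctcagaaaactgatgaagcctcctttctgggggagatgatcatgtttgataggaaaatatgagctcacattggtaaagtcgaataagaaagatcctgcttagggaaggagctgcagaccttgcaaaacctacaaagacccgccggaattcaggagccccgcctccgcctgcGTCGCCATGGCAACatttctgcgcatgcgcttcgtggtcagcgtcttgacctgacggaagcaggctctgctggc
Intu: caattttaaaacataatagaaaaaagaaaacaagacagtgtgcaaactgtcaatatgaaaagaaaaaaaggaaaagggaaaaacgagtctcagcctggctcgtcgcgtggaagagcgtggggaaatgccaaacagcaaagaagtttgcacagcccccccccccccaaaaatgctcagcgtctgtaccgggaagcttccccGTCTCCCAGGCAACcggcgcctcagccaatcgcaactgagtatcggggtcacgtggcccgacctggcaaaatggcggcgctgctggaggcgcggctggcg
Wdpcp: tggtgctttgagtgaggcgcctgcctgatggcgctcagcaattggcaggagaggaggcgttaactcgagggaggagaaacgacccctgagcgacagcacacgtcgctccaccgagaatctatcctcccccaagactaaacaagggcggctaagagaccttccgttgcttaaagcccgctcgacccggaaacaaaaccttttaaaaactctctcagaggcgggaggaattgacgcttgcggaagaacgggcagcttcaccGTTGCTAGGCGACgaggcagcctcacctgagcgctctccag

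The Rsg1 match, GTCGCCATGGCAAC, lies 24 to 11 bases before the start site that the RefSeq table uses. The Intu match, GTCTCCCAGGCAAC, has the same spacer of 3 bases and lies 50 to 37 bases before its start, which is downstream of the GENCODE gene start given above. The Wdpcp match has a spacer of 2 bases and lies on the minus strand, where it reads GTCGCCTAGCAAC, 9 to 21 bases after the start. Of all 32851 promoter windows, 2.17% held the letters with the spacer of 3, 1.56% with the spacer of 2, 0.938% with the spacer of 1, and 4.58% held any of them. The letters were not found in the windows of Fuz (chr7:44895829-44896128) and 2410089E03Rik (chr15:8168856-8169155). The GC content was 47.7% for Rsg1, 53.7% for Intu, 45.0% for Fuz, 57.7% for Wdpcp and 72.7% for 2410089E03Rik, beside a median of 52.7% over all windows. These matches are a description of letters, not of binding.

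The libraries held between 39339190 and 48475963 estimated fragments. A filter on low counts kept 15186 genes, the 5 CPLANE genes among them, although 9093 others were removed. All 10 fibroblast markers were above 1 CPM (counts scaled to the size of the library) in each library. Skeletal muscle and neuron markers were present too, with 8 of 9 and 9 of 9 above 1 CPM in every library. Markers of multiciliated cells summed to at most 7.07 CPM. Among them Foxj1 and Ccdc39 were above 1 CPM in every library, with minima of 1.03 and 1.10 CPM. Mcidas, the regulator that defines those cells, stayed at or below 0.0514 CPM. On the first principal component, which held 30.2% of the variance, fortified mutant 2 and 3 and moderate wild type 1 lay at one end, at 48.1, 57.5 and 68.0. Moderate wild type 2 and 3 lay at the other end, at -68.6 and -53.7, and the other 7 libraries ran from -18.9 to 4.74, so the 9 libraries outside the first set are no single cluster. Xist, the RNA of the inactive X chromosome, passed 1000 counts in all 6 mutant libraries but in 1 wild-type library of each folic acid level, so Xist and genotype are partly confounded.

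On the TPM scale (a share of transcripts corrected for length), mean levels over the 12 libraries were 7.79 ± 1.87 for 2410089E03Rik, 4.84 ± 2.29 for Fuz, 2.66 ± 0.821 for Wdpcp, 2.47 ± 0.706 for Intu and 2.05 ± 0.558 for Rsg1 (SD, n = 12). 2410089E03Rik was above Fuz in 10 of 12 libraries and Fuz above Wdpcp in 11 of 12. Wdpcp was above Intu in 6 of 12 and Intu above Rsg1 in 9 of 12, and the TPM ranges of all neighbours in this order overlapped. The 2 scales are not centred alike: on log2(TPM + 0.1) the median of all tested genes was 0.17 for mutant against wild type at moderate folic acid and -0.30 for fortified against moderate in the mutant, beside -0.05 and 0.04 in the edgeR fit of counts. The tests use counts, and TPM is given to set genes side by side. Among all tested genes Rsg1 stood at the 21.7th percentile of TPM and 2410089E03Rik at the 38.0th. By mean CPM, which is not corrected for length, 2410089E03Rik stood at the 66.3th percentile and Rsg1 at the 12.5th.

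**Figure D1:**
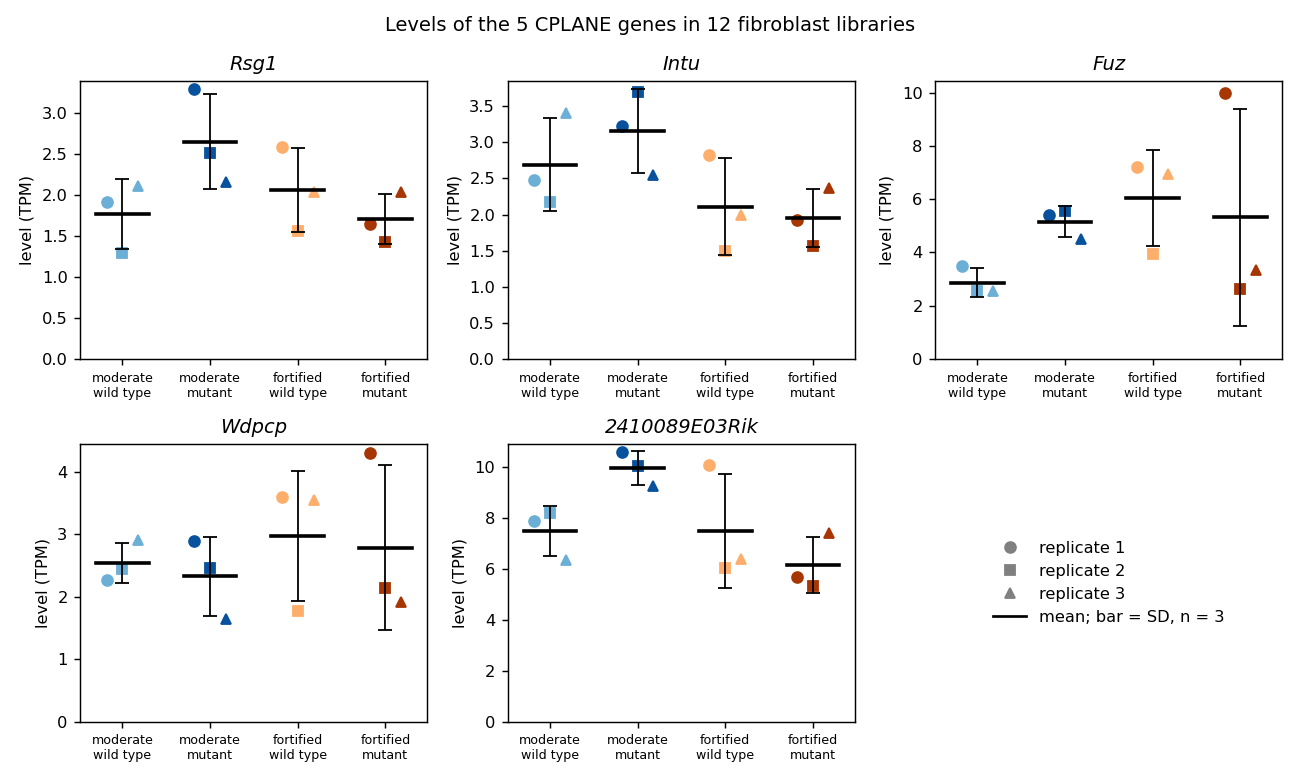
Level in TPM of each CPLANE gene (vertical axis, starting at 0) in the 3 libraries of each of 4 groups (horizontal axis), with the mean and SD of each group. The 3 moderate mutant libraries of 2410089E03Rik sit between 9.29 and 10.6, above all 3 moderate wild-type libraries, and fortified mutant 1 stands at 9.99 for Fuz, far from the other 2 libraries of its group. In TPM, 12.8% of all tested genes were higher in moderate mutant than in moderate wild type without overlap.

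Rsg1 is the small GTPase of the complex and the gene that carries the mutation. Its level was 1.91, 1.29 and 2.11 TPM in moderate wild type 1 to 3 and 3.29, 2.51 and 2.15 TPM in moderate mutant 1 to 3. The levels in fortified wild type 1 to 3 were 2.59, 1.56 and 2.04 TPM, and those in fortified mutant 1 to 3 were 1.65, 1.43 and 2.04 TPM. In TPM each moderate mutant library was above each moderate wild-type library, by a narrow margin, as was so for 12.8% of all tested genes. At fortified folic acid the genotypes overlapped.

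On the CPM scale used for the tests the moderate genotypes overlapped, because moderate wild type 3, at 0.964 CPM, was above moderate mutant 2 and 3, at 0.872 and 0.800 CPM. The log2 fold change of mutant over wild type was 0.38 (SE 0.38) at moderate and -0.22 (SE 0.38) at fortified folic acid, with adjusted p of 0.842 and 0.948 by edgeR's quasi-likelihood test. Neither difference passed the test. The 95% interval at moderate folic acid ran from 0.736-fold to 2.31-fold. Rsg1 transcript was counted in all 6 mutant libraries, and its level does not check the genotype labels.

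Depth limits Rsg1 more than the others. Its counts ran from 19 in moderate wild type 2 to 54 in moderate mutant 1, with exact Poisson intervals of 11.4 to 29.7 and 40.6 to 70.5 that cover counting error only. Counting alone would give a coefficient of variation of 16.5%, and the observed value over the 12 libraries was 21.1%. For 2410089E03Rik, with 1521 to 2414 counts, the corresponding values were 2.34% and 14.6%. Most of the scatter of Rsg1 was thus of the size that counting gives, whereas that of 2410089E03Rik was several times larger.

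No CPLANE gene passed the test between mutant and wild type. At moderate folic acid 0 of the 5 genes passed an adjusted p of 0.05, where 0.00% of all tested genes did. At fortified folic acid the count was also 0 of 5 beside 0.00% of all genes. For all genes, edgeR gave unadjusted p under 0.05 for 1195 genes at moderate and 500 at fortified folic acid, and DESeq2 called 50 (0.365%) and 6 (0.0396%), with no CPLANE gene among them. Averaged over folic acid levels, mutant against wild type gave log2 fold changes from -0.18 for Wdpcp to 0.28 for Fuz, and 0 of the 5 genes passed, beside 0.00% of all genes.

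Intu, which forms the core of the complex with Fuz and Wdpcp, measured 2.48, 2.18 and 3.41 TPM in moderate wild type 1 to 3 and 3.23, 3.69 and 2.54 TPM in moderate mutant 1 to 3. At fortified folic acid it measured 2.83, 1.50 and 2.00 TPM in the wild-type and 1.92, 1.56 and 2.36 TPM in the mutant libraries. The genotypes overlapped at both levels of folic acid. At fortified folic acid the CPM values overlapped for all 5 genes, where 10.3% of all tested genes did not overlap. Mutant over wild type gave a log2 fold change of 0.01 (SE 0.29) at moderate and -0.06 (SE 0.29) at fortified folic acid, the closest to 0 at moderate folic acid of the 5 genes. Its 95% interval at moderate folic acid was 0.650-fold to 1.57-fold.

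Fuz, the partner of Intu in the complex that activates the GTPase Rab23, had the widest range of the 5 genes. It measured 3.48, 2.55 and 2.56 TPM in moderate wild type 1 to 3 and 5.39, 5.57 and 4.51 TPM in moderate mutant 1 to 3. In fortified wild type 1 to 3 it measured 7.21, 3.95 and 6.95 TPM, and in fortified mutant 1 to 3 it measured 9.99, 2.63 and 3.32 TPM. Every moderate mutant library was above every moderate wild-type library, in TPM and in CPM, while fortified mutant 1 was the highest of all 12 libraries and the other 2 of its group were among the lower ones.

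The log2 fold change of Fuz in mutant over wild type was 0.68 at moderate folic acid (SE 0.45, adjusted p = 0.749, edgeR). At fortified folic acid it was -0.12 (SE 0.45, adjusted p = 0.977, edgeR), and without fortified mutant 1 it was -0.97. Fuz and 2410089E03Rik were the 2 of 5 genes whose moderate genotypes did not overlap on the CPM scale, both higher in the mutant, where 13.0% of all tested genes did not overlap and 6.34% were higher. In TPM they were joined by Rsg1, and 12.8% of all tested genes were higher without overlap on that scale.

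Wdpcp, the third core protein, which is known to bind septins as well, measured 2.28, 2.45 and 2.91 TPM in moderate wild type 1 to 3 and 2.89, 2.46 and 1.64 TPM in moderate mutant 1 to 3. It measured 3.60, 1.77 and 3.56 TPM in fortified wild type and 4.31, 2.14 and 1.92 TPM in fortified mutant libraries. All 4 groups overlapped. Its log2 fold change in mutant over wild type was -0.34 (SE 0.40) at moderate and -0.03 (SE 0.40) at fortified folic acid.

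2410089E03Rik, whose large protein CPLANE1 is mutated in ciliopathies with brain malformation, had the highest level and the narrowest intervals. It measured 7.88, 8.20 and 6.37 TPM in moderate wild type 1 to 3 and 10.6, 10.1 and 9.29 TPM in moderate mutant 1 to 3. It measured 10.1, 6.05 and 6.40 TPM in fortified wild type and 5.70, 5.36 and 7.43 TPM in fortified mutant libraries. The moderate mutant libraries lay above the moderate wild-type and above the fortified mutant libraries without overlap, and fortified wild type 1 was as high as they were. In TPM, 12.8% of all tested genes were higher in moderate mutant than in moderate wild type without overlap. For fortified against moderate in the mutant, 35.9% were lower without overlap.

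The log2 fold change of 2410089E03Rik in mutant over wild type was 0.24 (SE 0.16) at moderate and -0.23 (SE 0.16) at fortified folic acid, with adjusted p of 0.749 and 0.939 by edgeR. The difference between these 2 values was tested as an interaction and was -0.48 (SE 0.23), with an unadjusted p of 0.0603 and an adjusted p of 0.708 by edgeR. It did not pass, nor did the interaction for the other 4 genes, whose values ran from -0.80 for Fuz to 0.31 for Wdpcp. No gene in the table passed the interaction test (0.00% of 15186), while 1015 had an unadjusted p under 0.05 and DESeq2 called 8 (0.0528%).

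**Figure D2:**
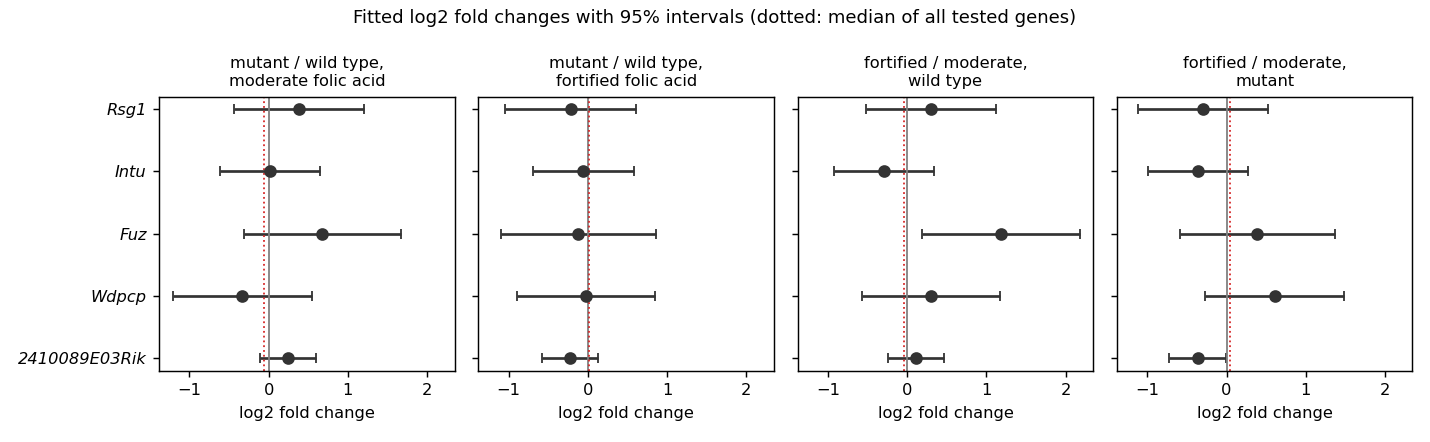
Log2 fold change of each CPLANE gene (horizontal axis) with its 95% interval in 4 comparisons, from edgeR with 3 libraries a group; the dotted line is the median of all tested genes. The interval includes 0 in each panel except for Fuz in wild type, from 0.19 to 2.18, and 2410089E03Rik in the mutant, from -0.72 to -0.01, and neither passed after adjustment over all genes.

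More genes passed for folic acid than for genotype by edgeR, mainly in the mutant and in the average over genotypes. The log2 fold changes of the CPLANE genes had both signs, as did those of all tested genes, and none of the 5 passed. Leaving out single libraries turned the sign of Intu and 2410089E03Rik in wild type, Fuz in the mutant and Rsg1 in the average. In wild type, where 0.0263% of all genes passed, 0 of the 5 genes did. In the mutant, 6.93% of genes passed and again 0 of the 5; without moderate mutant 1 or without moderate mutant 2 no gene passed, and 2073 did without moderate wild type 1. These 2 comparisons have no library in common, but each shares its libraries with the genotype comparisons above.

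Fuz had the largest log2 fold change in wild type, 1.18 (SE 0.45), or 2.27-fold with a 95% interval from 1.14-fold to 4.52-fold. All 3 fortified wild-type libraries, at 3.60 to 5.96 CPM, were above all 3 moderate wild-type libraries, at 1.90 to 2.47 CPM. Its unadjusted p was 0.0234 and its adjusted p 0.182 by edgeR, which did not pass. It was the only one of the 5 genes whose groups did not overlap in wild type, where 20.6% of all tested genes did not and 11.0% were higher at fortified folic acid. Leaving out single libraries gave adjusted p from 0.0544 to 0.399 (edgeR). Without the 3 libraries at the upper end of the first component, its log2 fold change was 1.27, in a fit that called 8.32% of genes. This alternative was chosen after seeing the data, and it drops moderate wild type 1, the highest of its group for Fuz. That fit sets moderate wild type 2 and 3, the libraries at the lower end, against the 3 fortified wild-type libraries.

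In the mutant, Fuz had a log2 fold change of 0.39 (SE 0.45, adjusted p = 0.636, edgeR) for fortified over moderate. The sign rested on fortified mutant 1, at 8.77 CPM: without it the value was -0.47, and limma with sample quality weights gave -0.37. Averaged over genotypes the log2 fold change of Fuz was 0.79 (SE 0.32, adjusted p = 0.107, edgeR), in a comparison where 17.8% of all genes passed. Without the same 3 libraries the averaged log2 fold change of Fuz was 1.27, in a fit where 25.4% of all genes were called. These libraries include fortified mutant 2 and 3, the lowest fortified ones for Fuz, at 2.40 and 2.76 CPM. They also include moderate wild type 1, the highest of its group, at 2.47 CPM. The 1 fortified mutant library left is fortified mutant 1, assumed to vary like the other groups. That fit was chosen after seeing the data, so it cannot decide whether Fuz differs between folic acid levels.

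2410089E03Rik had a negative log2 fold change in the mutant. Fortified mutant libraries, at 33.7, 32.8 and 41.6 CPM, were all below the moderate mutant libraries, at 47.8, 46.0 and 45.6 CPM. The log2 fold change was -0.37 (SE 0.16, unadjusted p = 0.0441, adjusted p = 0.183, edgeR), in a comparison where 38.2% of all genes did not overlap and 18.5% were lower. By limma with sample quality weights it passed, at -0.39 with an adjusted p of 0.0314, in a fit that called 34.7% of all genes. In wild type its log2 fold change was 0.11 (SE 0.16, adjusted p = 0.733, edgeR), and the libraries overlapped.

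Rsg1, Intu and Wdpcp overlapped in CPM between folic acid levels in both genotypes. In TPM the fortified mutant libraries of Rsg1 and Intu were all below the moderate mutant ones, as were those of 35.9% of all tested genes on that scale. Intu had a negative log2 fold change in wild type, -0.29 (SE 0.29), and in the mutant, -0.36 (SE 0.29). Wdpcp had positive values, 0.30 (SE 0.40) in wild type and 0.61 (SE 0.40) in the mutant. Rsg1 had 0.30 (SE 0.38) in wild type and -0.30 (SE 0.38) in the mutant, which average to 0.00 with a 95% interval from 0.668-fold to 1.50-fold. The averaged log2 fold changes of the 5 genes had a wide range, from -0.33 for Intu to 0.79 for Fuz, and their median was close to that of all tested genes, 0.00.

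The cell types in the cultures varied between libraries as well. Fibroblast markers summed to 22136 to 23626 CPM in moderate mutant, 12864 to 25306 in moderate wild-type, 20190 to 26621 in fortified mutant and 33649 to 43396 in fortified wild-type libraries. Neuron markers summed to 192 to 202 CPM, 194 to 463, 120 to 390 and 138 to 154 in the same order, and no neuron marker was at 0 in any library. Skeletal muscle markers summed to 1190 to 1807 CPM, 649 to 2451, 492 to 2095 and 478 to 1012 in that order. Fuz had r = 0.63 with the fibroblast sum and r = -0.69 with the neuron sum over the 12 libraries, whose points share groups and composition. Intu had r = 0.78 with the sum of the multiciliated cell markers, which ran from 3.90 to 7.07 CPM, with Mcidas and Tekt1 at 0 in some libraries. Wdpcp had r = 0.60 with that sum and r = -0.51 with the skeletal muscle sum. For Intu, r was 0.50 with the blood and immune sum and -0.51 with the epithelial sum. The part of other cell types in the values of Fuz, Intu and Wdpcp was not tested.

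Count and TPM together hold a further measure, the estimated length of the transcripts assigned to a gene. It varied by less than 1% around the mean of the gene in every library for all 5 genes, and 0 of 5 passed limma's test in any of the comparisons, where at most 0.00673% of 14856 genes did. Without fortified mutant 1 the folic acid average called 2493 genes and 1 of the 5, Wdpcp, with a log2 difference of 0.0020 (adjusted p = 0.0483, limma). For Rsg1 the log2 difference of mutant over wild type at moderate folic acid was 0.0067 (SE 0.0042, adjusted p = 0.548, limma). Its 95% interval ran from -0.0029 to 0.0163 on the log2 scale.

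Across libraries, the levels of Rsg1 and Intu followed each other most closely in rank. Over 12 libraries Pearson's r of log2 CPM was 0.64 (permutation p = 0.0255, adjusted over 10 pairs 0.128) and Spearman's rank correlation was 0.78 (permutation p = 0.00424, adjusted 0.0424). Without moderate wild type 2 and moderate mutant 1, the libraries farthest from the median of Rsg1, r was 0.76. It was 0.71 within the 6 moderate and 0.89 within the 6 fortified libraries. With group means removed r was 0.84, with an adjusted p of 0.154 from an exact permutation within groups. Of all genes compared, 0.494% had a higher r with Rsg1 than Intu had, and 2.58% had a higher r with Intu than Rsg1 had.

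Fuz and Wdpcp had r = 0.65 (permutation p = 0.0227, adjusted 0.128) but a Spearman rank correlation of 0.42 (permutation p = 0.178, adjusted 0.356). Within the fortified libraries r was 0.91 and within the moderate ones -0.39, and without fortified mutant 1 and moderate wild type 2 it was 0.46. The relation rests on few libraries: fortified mutant 1 was the highest in both genes. Of the 10 pairs, none passed on Pearson's r after adjustment, and Rsg1 with Intu was the only pair to pass on the rank correlation.

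**Figure D3:**
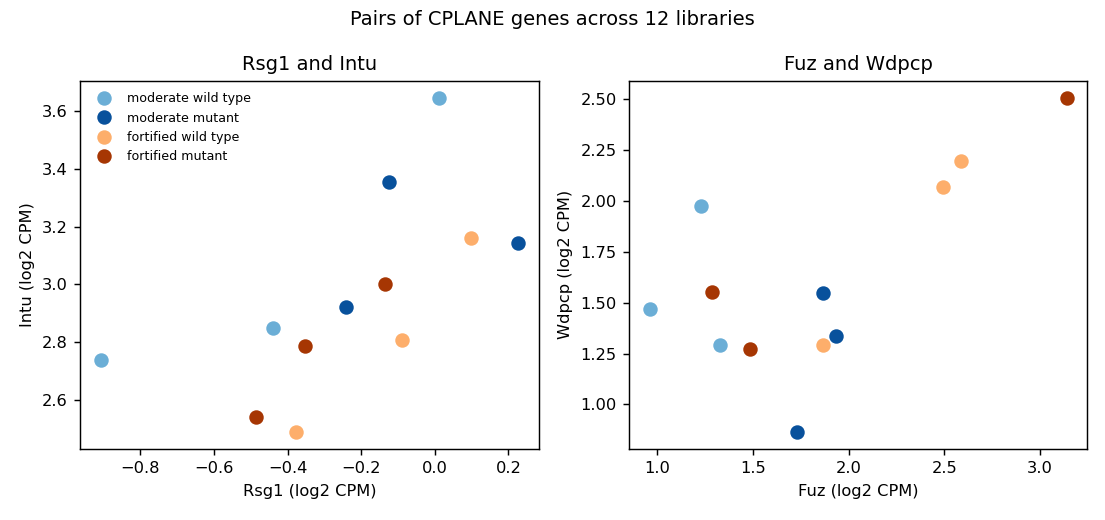
Log2 CPM of Intu against Rsg1 (left) and of Wdpcp against Fuz (right), 1 point per library, coloured by group. The left points rise together over the 12 libraries (Spearman rank correlation 0.78), whereas the right panel is stretched by fortified mutant 1 at the upper right corner.

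The genes most like each CPLANE gene over the 12 libraries, among about 10915 genes with a mean of at least 5 CPM, are a description. For Rsg1 they were Pik3ca (r = 0.83), Efna4 (r = 0.82) and Zfp652 (r = 0.81), and for Intu they were Sin3a (r = 0.85), Cep95 (r = 0.85) and Ap3m2 (r = 0.84). For Fuz they were Fto (r = 0.95), Fbxo31 (r = 0.95) and Ctdsp2 (r = 0.94). For Wdpcp they were Bbs9 (r = 0.92), which encodes a subunit of the BBSome, a coat complex of cilia, Mdp1 (r = 0.92) and Armcx3 (r = 0.92). For 2410089E03Rik they were Aak1 (r = 0.91), Tnrc18 (r = 0.90) and Per1 (r = 0.90). The genes with r over 0.8 numbered 3 for Rsg1, 15 for Intu, 283 for Fuz, 126 for Wdpcp and 70 for 2410089E03Rik. Mean counts per library were 36.8, 352, 175, 143 and 1826 in the same order. Each gene named for Fuz and for Wdpcp was highest in fortified mutant 1, as were Fuz and Wdpcp themselves.

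Genes that adjoin the CPLANE genes on the chromosome were measured in the same libraries, and 8 of the 10 neighbours in the RefSeq table passed the filter. Averaged over genotypes, 2 of these 8 were higher and 2 lower at fortified folic acid (adjusted p under 0.05, edgeR), while 0 of the 5 CPLANE genes were, in a comparison where 17.8% of all genes passed. Arhgef19, 19.5 kb downstream of Rsg1, measured 1.47, 2.67 and 2.11 CPM in moderate wild type 1 to 3 and 7.97, 6.91 and 5.10 CPM in moderate mutant 1 to 3. It measured 5.80, 8.43 and 8.99 CPM in fortified wild-type and 16.5, 9.00 and 5.35 CPM in fortified mutant libraries. The moderate wild-type libraries were thus the lowest of all 12.

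Arhgef19 had a log2 fold change of 1.68 for mutant over wild type at moderate folic acid (SE 0.41, adjusted p = 0.588, edgeR), and DESeq2 gave 1.68 with an adjusted p of 0.0236. Averaged over genotypes it was 1.26 for fortified over moderate (SE 0.28, adjusted p = 0.0140, edgeR). For Rsg1 itself the same 2 values were 0.38 and 0.00. Fbxo42, an F-box gene 9.88 kb upstream of Rsg1, fell by 0.59 on the log2 scale at fortified folic acid in the average (adjusted p = 0.0343, edgeR), but the adjusted p was 0.0605 with the replicate block and up to 0.0858 without single libraries, of which 3 of 12 kept the call.

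Mdh1, the cytosolic malate dehydrogenase, lies 0.034 kb from Wdpcp in the RefSeq table. It measured 62.6, 59.6 and 54.7 CPM in moderate mutant and 137, 184 and 179 CPM in fortified mutant libraries, without overlap. It rose at fortified folic acid in the mutant by 1.50 on the log2 scale (SE 0.23, adjusted p = 0.00979, edgeR) and by 0.95 in the average over genotypes (SE 0.16, adjusted p = 0.00692, edgeR). The call in the mutant was lost without any 1 of moderate mutant 1, 2 and 3 and fortified mutant 2 (adjusted p up to 0.0753, edgeR), and that in the average passed whichever library was left out. Wdpcp had 0.61 and 0.46 in the same comparisons, with adjusted p of 0.372 and 0.282.

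Nipbl, the cohesin loader 18.7 kb downstream of 2410089E03Rik, fell at fortified folic acid by 0.60 on the log2 scale in the mutant (SE 0.16, adjusted p = 0.0468, edgeR; 0.0587 with the replicate block). That call was kept in 4 of the 12 fits that left out 1 library (adjusted p up to 0.149, edgeR, without moderate mutant 3). It fell by 0.51 in the average over genotypes (SE 0.11, adjusted p = 0.0132, edgeR), and passed whichever library was left out. The 3′ end of Fuz overlaps Ap2a1, which lies on the other strand, and whether counting used the strand is not given in the sources used here, so reads of the 2 genes may not be separate. Ap2a1 had an averaged log2 fold change of 0.09 (adjusted p = 0.678, edgeR). In a fit restricted to the 8 libraries with Xist, chosen after seeing the data, the averaged calls of these neighbours were lost. That fit keeps 1 wild-type library of each folic acid level, so it cannot decide whether the calls hold.

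**Figure D4:**
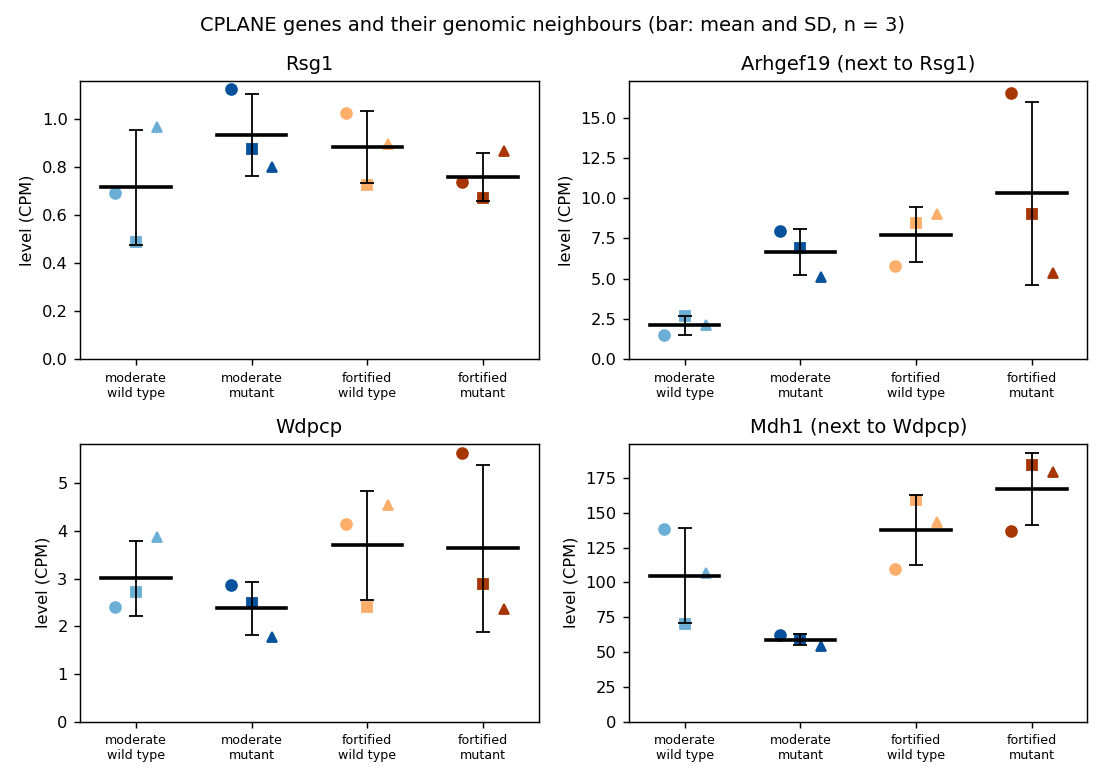
Level in CPM of Rsg1 and Wdpcp (left) and of the adjoining Arhgef19 and Mdh1 (right) in each library, with the mean and SD of each group of 3; every vertical axis starts at 0. Arhgef19 is at 1.47 to 2.67 CPM in moderate wild type, below the other 9 libraries, and Mdh1 is at 54.7 to 62.6 CPM in moderate mutant, while Rsg1 and Wdpcp overlap between all groups.

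The genes that work with CPLANE gave 0 calls in either direction between mutant and wild type, at either level of folic acid, in lists of mother centriole and cilium initiation (18 genes tested), IFT-A (7), IFT-B (17), ciliary GTPases and their partners (20), Hedgehog signalling (16), planar cell polarity (18) and septins with cytoskeletal partners (5). No gene in the whole table passed either of these comparisons (0.00% of 15186), so the counts say nothing particular to the lists. At moderate folic acid the median log2 fold changes ran from -0.18 for IFT-B to 0.27 for planar cell polarity, beside -0.05 for all tested genes. At fortified folic acid they ran from -0.22 for IFT-A to 0.08 for septins, beside 0.01.

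For fortified against moderate folic acid averaged over genotypes, 17.8% of all genes passed and the lists ran from 1 of 16 to 1 of 5. In IFT-B, which carries cargo outward, 3 rose (Ift20 by 0.78, Hspb11 by 0.80 and Ift27 by 0.77 on the log2 scale) and 0 fell. In the ciliary GTPase list 3 rose, Rab11a by 0.68, Arl3 by 0.53 and Pde6d by 0.59. In IFT-A, the train that returns cargo and that CPLANE helps to load, 1 rose, Ift43 by 0.62, and among septins 1 rose, Sept9 by 0.41. In the mother centriole list 2 fell, Ccp110 by 0.54 and Cep97 by 0.55 on the log2 scale; both are known as proteins that cap the centriole and hold back cilium growth.

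In the Hedgehog list 1 of 16 fell, Hhip, a decoy receptor for Hedgehog ligands, by 1.22 (adjusted p = 0.0268, edgeR). In the planar polarity list 2 rose, Vangl1 by 0.55 and Ror2 by 0.63, and 1 fell, Ankrd6 by 0.88 on the log2 scale. Within the mutant alone 1 IFT-B gene passed, Ift20 at 0.96 (adjusted p = 0.0372, edgeR), and 1 GTPase gene, Rab11a at 0.94 (adjusted p = 0.00977, edgeR), where 6.93% of all genes passed. The call of Ift20 in the mutant was lost without any 1 of moderate mutant 1, 2 and 3, fortified mutant 1 and 2 and fortified wild type 2 (adjusted p up to 0.133), and that of Rab11a without any 1 of moderate mutant 1, 2 and 3 and fortified mutant 2 (up to 0.0753, edgeR). In the average, Ift20 and Rab11a passed whichever library was left out, whereas each of the other partner genes lost its call without at least 1 library. Of the 12 fits that left out 1 library, the averaged call was kept in 2 for Cep97 and Ror2, 3 for Ccp110 and Sept9, 5 for Pde6d and Hhip, 6 for Hspb11 and Vangl1, 7 for Ift43 and Ift27, 8 for Ankrd6 and 10 for Arl3. These averaged calls ended in the fit of the 8 libraries with Xist. That fit keeps 1 wild-type library of each folic acid level, so it cannot decide whether the calls hold.

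**Figure D5:**
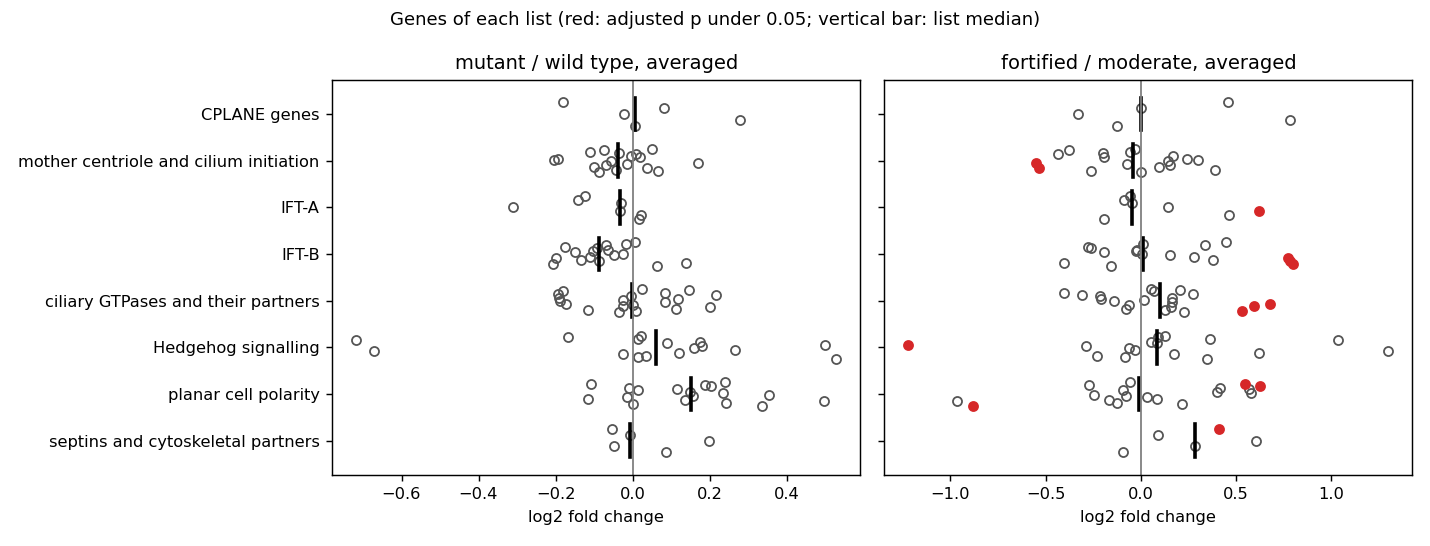
Log2 fold change of each gene (horizontal axis) in the CPLANE group and 7 lists of partner genes, averaged over folic acid for mutant against wild type (left) and over genotype for fortified against moderate (right); filled red points have an adjusted p under 0.05 by edgeR and the bar is the list median. Red points appear in the right panel, where 17.8% of all tested genes passed, and in none of the CPLANE genes.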

How the data were processed

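PolyA RNA from 12 libraries of mouse embryonic fibroblasts was made into libraries with the TECAN Universal Plus mRNA-Seq kit, per the labels' protocols. The authors deposited estimated counts per gene, which need not be whole, and TPM values, both as salmon output per the file headers and names, with the build mm10 per the submitters' processing notes; the salmon version, annotation and strand setting are not stated by the labels or headers. Groups came from the sample titles. The 5 genes and all lists were chosen with earlier results of these data known.

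Counts were rounded and fitted with edgeR 4.0.16 (TMM scaling, quasi-likelihood test, R 4.3.3) over all 12 libraries and 4 groups, after edgeR's filter (minimum count of 10, total of 15), with Benjamini-Hochberg adjustment over 15186 genes and a threshold of 0.05. Common biological variation was 0.332. Library totals of 39339190 to 48475963 limit the least abundant gene to 19 to 54 counts. Pairs of genes were tested with 100000 permutations of log2 CPM, and the exact test within groups had 1296 arrangements. Estimated length was the log2 ratio of count to TPM less the library median, tested with limma 3.58.1. Genes other than the 5 were named by rule: the nearest neighbour on each side, the 3 genes of at least 5 CPM with the highest r, and the 2 smallest p in each partner list and comparison. Pde6d, Ror2 and any other gene named to spell out a count of called genes were chosen after their values were seen. Alternatives were DESeq2 1.42.0, its scaling, limma with quality weights, log2(TPM + 1) and log2(TPM + 0.1), other filters, a replicate block, fits of 2 groups, and leaving out each library; the fits without 3 libraries and of libraries with Xist were added after seeing the data. The scripts were tested on simulated data.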

Additional observations from a re-analysis of the deposited data

How the results depend on the processing

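No CPLANE gene passed under the median-of-ratios scaling, DESeq2, either filter, either TPM fit, the replicate block or the fits of 2 groups; the filter of 1 CPM left 4 of the 5 genes, without Rsg1. The members called rose from 0 to 1 by limma with quality weights for fortified against moderate in the mutant (2410089E03Rik). The fit without the 3 libraries at the upper end of the first component left 1 fortified mutant library. For that fit only log2 fold changes of the 5 genes are given, because 1 library has no spread of its own. Leaving out each library gave 0 members called throughout, and 0 to 1 with a changed estimated length in the folic acid average, where 0 to 2493 of all genes were called.

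Genes called in wild type for fortified against moderate, 4 in the fit reported, were 1197 by DESeq2, 17 with quality weights, 80 with no filter, 39 with the filter of 1 CPM, 1 with log2(TPM + 1), 13 with log2(TPM + 0.1), 0 with only the 2 groups, 1298 without the 3 libraries, 0 with the libraries with Xist and 1 to 1012 leaving out each library. In the mutant, 1053 genes became 2414 by DESeq2, 5273 with quality weights, 2814 and 2805 on the 2 TPM scales, 2122 with only the 2 groups, 2045 with the libraries with Xist and 0 to 2073 leaving out each library. In the folic acid average, 2696 became 0 with the libraries with Xist and 1411 to 4025 leaving out each library. The fit of the libraries with Xist keeps 1 wild-type library of each folic acid level, which limits its counts in wild type and in the average. DESeq2 called 50 and 6 genes between genotypes at moderate and fortified folic acid, 18 in their average and 8 in the interaction, where edgeR called 0.

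Across groups, 18 pairs of libraries with the same replicate number had correlations of -0.48 to 0.24, of which 4 were over 0.1. The 36 pairs with different numbers had correlations of -0.38 to 0.47, of which 9 were over 0.1. With 3 libraries a group, these values cannot decide whether the numbers pair the libraries. With the replicate block 65 genes were called in wild type, 559 in the mutant and 2309 in the folic acid average, and Intu in the genotype average went to 0.0013.

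Signs of some values turned. On the log2 scale these were Fuz for fortified against moderate in the mutant (-0.37 with quality weights, -0.14 and -0.20 on the TPM scales), 2410089E03Rik in wild type (-0.019 and -0.024 on the TPM scales), and Intu in wild type (0.32 with the libraries with Xist). In the folic acid average they were Rsg1 (-0.016 by DESeq2, -0.013 with the other scaling, -0.14 and -0.19 on the TPM scales, -0.042 without the 3 libraries) and 2410089E03Rik (0.049 with Xist). In the genotype average they were Fuz (-0.036) and 2410089E03Rik (-0.041) with quality weights, Intu (0.057 and 0.075 on the TPM scales), Wdpcp (0.073) and 2410089E03Rik (-0.052) without the 3 libraries, and 2410089E03Rik (-0.12) with Xist. Between genotypes within a folic acid level they were Intu at moderate (-0.085 without the 3 libraries), Wdpcp at moderate (0.012 with Xist), and Fuz (0.78) and Wdpcp (0.59) at fortified without the 3 libraries. In the interaction they were Wdpcp (-0.19 with quality weights, -0.21 with Xist) and Intu (0.0097 without the 3 libraries). The cause of these changes was not tested.

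Leaving out single libraries turned the sign of several values, some of them not near 0 in the fit of all libraries. In that fit Fuz for fortified against moderate in the mutant was 0.39, and the interaction of Wdpcp was 0.31. Between genotypes at moderate folic acid Intu ran from -0.15 to 0.36. At fortified folic acid Intu ran from -0.21 to 0.12, Fuz from -0.97 to 0.18 and Wdpcp from -0.49 to 0.20. For fortified against moderate, Intu in wild type ran from -0.47 to 0.052, 2410089E03Rik in wild type from -0.073 to 0.20, Fuz in the mutant from -0.47 to 0.67 and Rsg1 in the average from -0.10 to 0.14. In the genotype average Rsg1 ran from -0.023 to 0.22, Intu from -0.10 to 0.15, Fuz from -0.15 to 0.44 and 2410089E03Rik from -0.042 to 0.11. In the interaction Intu ran from -0.42 to 0.093 and Wdpcp from -0.16 to 0.51.
Of 22 calls on partner and neighbour genes, 4 stayed in the fit of the libraries with Xist, 14 on each log2(TPM) scale, 17 with the replicate block, 19 without the 3 libraries, 20 with no low-count filter and 6 to 22 leaving out each library. The 5 calls lost with the replicate block were Fbxo42, Hspb11 and Pde6d in the folic acid average (adjusted p = 0.0605, 0.0590 and 0.0520, edgeR) and Nipbl and Ift20 in the mutant (0.0587 and 0.0544).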
